A study of Mus musculus with 6 samples.

Results

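The genes described here were 8 members of the neurotrophin system of the mouse cortex, chosen by name: the ligands Bdnf and Ntf3, the receptor tyrosine kinases Ntrk2 and Ntrk3, the death-domain receptor Ngfr, the sorting receptor Sort1, the secreted peptide precursor Vgf and the GDNF family receptor Gfra2. They were read from the 38355 genes counted in each sample, and all 8 had enough reads to be tested. RNA sequencing compared whole cortical tissue of C57BL/6 mice at 6 months (3 samples) and 16 months (3 samples), with the aim of finding genes relevant to ageing of the cortex. Both groups were labelled only as C57BL/6, with no treatment or transgene named, so age was the only labelled difference between them. The study describes the samples as 3 brains of each age, and the p-values measure the spread between these brains.

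Neurotrophins are secreted growth factors that are made as longer precursors and cut to their mature form. Mature BDNF binds TrkB, the product of Ntrk2, and mature NT-3, the product of Ntf3, binds TrkC, the product of Ntrk3, and both receptors signal through their tyrosine kinase to sustain survival, dendrite growth and synaptic strength. The precursors bind instead to p75, the product of Ngfr, together with sortilin, the product of Sort1, a pair known for its role in cell death and synaptic weakening. Vgf is a gene induced by neurotrophins and by neuronal activity whose peptides are stored in secretory granules, and Gfra2 encodes the receptor for neurturin, which signals together with the kinase Ret.

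2 features of the gene sequences bear on how the values can be read. The first is base composition, because Bdnf and Vgf are the ends of the GC range of the 8 genes. GC content was taken over all annotated transcripts of a gene together, weighted by their length. G and C made up 40.5% of these bases for Bdnf and 64.8% for Vgf. Ntrk3 was at 47.1%, Ntf3 at 47.9%, Ntrk2 at 49.0%, Sort1 at 50.4%, Gfra2 at 53.1% and Ngfr at 58.6%. The start of each coding sequence, 120 bases from the GENCODE transcripts on GRCm38, is printed with G and C in capitals. The contrast is smaller in these bases than over all transcripts. Bdnf is read from chr2:109723403-109723522 and Vgf from chr5:137030986-137031105, both on the plus strand.
Bdnf: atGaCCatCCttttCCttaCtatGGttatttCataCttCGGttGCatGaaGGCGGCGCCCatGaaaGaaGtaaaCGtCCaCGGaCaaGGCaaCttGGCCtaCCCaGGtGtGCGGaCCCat
Vgf: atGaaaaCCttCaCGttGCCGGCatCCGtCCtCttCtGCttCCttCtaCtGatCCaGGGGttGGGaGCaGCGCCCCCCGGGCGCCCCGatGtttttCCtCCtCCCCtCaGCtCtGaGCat
In these 120 bases the GC share was 50% for Bdnf and 60% for Vgf. Over the whole coding sequence it was 52.1% for Bdnf and 65.5% for Vgf, and over the whole transcript it was 40.8% and 64.8%, so that the low value of Bdnf came from outside its coding sequence.

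The second feature is the splice form. Ntrk2 is known to give a full-length receptor with a kinase and a truncated receptor without one, which astrocytes mainly make, and counts per gene add them together. The annotated forms share 1393 coding bases and then part, with 1073 further coding bases in the full-length form and 38 in the truncated form. The coding bases around that splice are printed with the bases after it in capitals, from chr13:58985802-58985861 for the full-length and chr13:58932023-58932060 for the truncated form on GRCm38, plus strand.
Ntrk2 full length: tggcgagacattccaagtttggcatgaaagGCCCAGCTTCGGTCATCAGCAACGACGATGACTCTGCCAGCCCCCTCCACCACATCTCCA
Ntrk2 truncated: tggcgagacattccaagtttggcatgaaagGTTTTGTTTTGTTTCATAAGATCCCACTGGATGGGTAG
Shorter forms are annotated for Ntrk3 as well, and Bdnf has several start sites joined to 1 shared coding exon. None of the values below separates these forms or start sites.

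Sample totals and tissue markers set the frame for the values. Between 29797253 and 46519280 reads fell on genes in each sample. Markers of excitatory neurons, the main cells of the cortex, summed to between 4272 and 4517 counts per 1000000 reads (CPM, after TMM normalization) at 6 months and to between 4449 and 5139 CPM at 16 months, with 0 of 5 markers called. At 16 months, marker genes of some neighbouring structures were higher, where 1.67% of all tested genes were called in either direction. Of the thalamus markers 4 of 7 were called, with a summed level of 94.5 to 98.8 CPM at 6 months and 120 to 132 CPM at 16 months. Their log2 fold changes (16 over 6 months) ran from 0.18 to 4.06. The highest was that of Shox2, with 4 reads in each sample of 6 months and 48 to 65 reads at 16 months. Of the dentate gyrus markers 3 of 5 were called, with 49.7 to 52.5 CPM and 70.4 to 74.5 CPM. Their log2 fold changes ran from 0.21 to 1.26. The choroid plexus markers summed to 16.1 to 17.4 CPM and 24.6 to 27.6 CPM, with 1 of 4 tested genes called. No marker of these 3 lists was at 0 in every sample. Of the hippocampal CA field markers 0 of 5 were called, with a median log2 fold change (16 over 6 months) of 0.047. Of the striatal projection neuron markers 0 of 6 were called, with a median of 0.084. The dentate gyrus and the thalamus are known to express several of the 8 genes, and the part of these tissue differences in the values below was not tested.

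With age, no gene of the system passed the test, while all 8 had a higher fitted level at 16 months. At an adjusted p of 0.05 in edgeR's quasi-likelihood test, 0 of 8 were called, against 1.67% of the 17120 genes tested. At an unadjusted p under 0.05 the test listed 4 of the 8, Ntrk2, Ntrk3, Vgf and Gfra2, against 8.57% of all tested genes that were higher at that level. DESeq2's Wald test also called 0 of 8, against 2.61% of its genes. The log2 fold change (16 over 6 months) was positive for 8 of 8, with a median of 0.20, while 50.3% of all tested genes had a positive value and their median was 0.0014. In whole tissue, fewer cells of a type and less RNA per cell cannot be told apart.

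**Figure D1:**
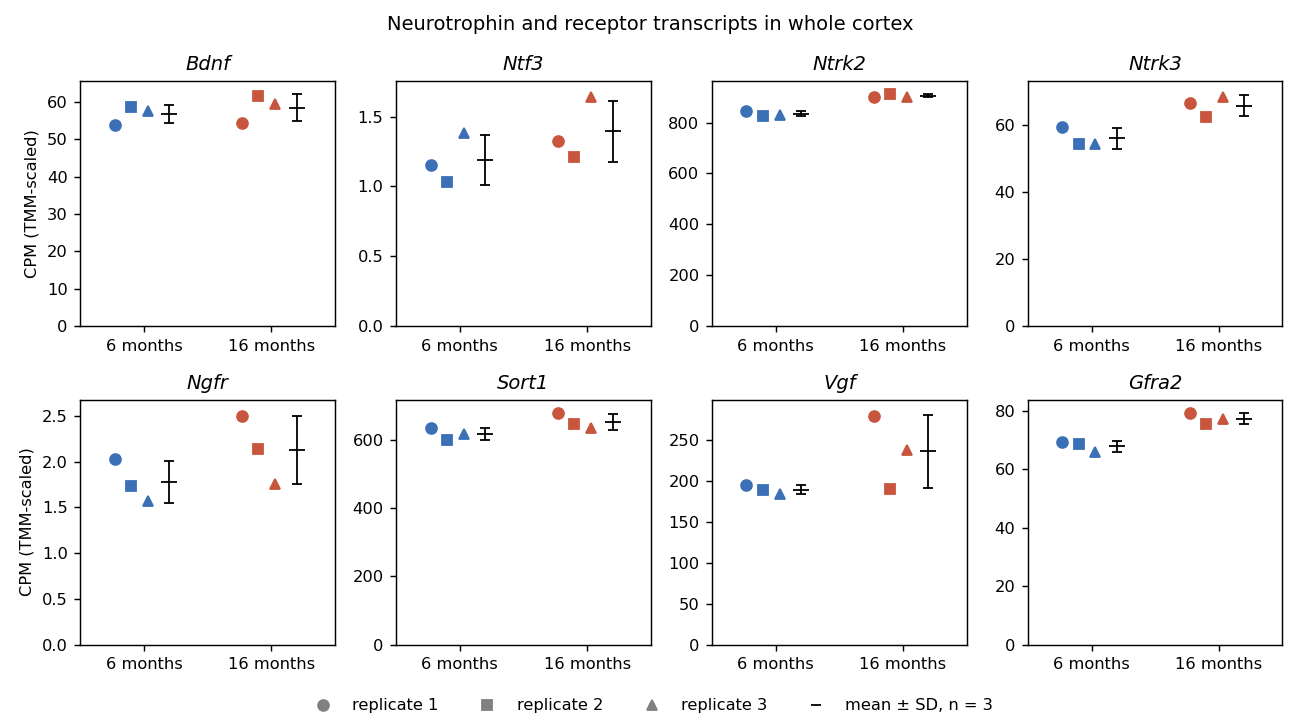
Counts per 1000000 reads (CPM) of the 8 genes (one panel per gene, vertical axes starting at 0 and scaled per gene) in the 3 samples of 6 months and the 3 samples of 16 months, with points for samples and bars for the mean and SD. The ages were separated for Ntrk2, Ntrk3, Sort1 and Gfra2, and the widest scatter at 16 months was that of Vgf, from 190 to 279 CPM.

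Bdnf, the main activity-regulated neurotrophin of the cortex, lies at chr2:109674700-109727007 on the plus strand (GRCm38, as all positions here). Its level was 54.0, 58.7 and 57.5 CPM in replicates 1 to 3 at 6 months and 54.5, 61.5 and 59.4 CPM at 16 months. The ages overlapped, with replicate 1 the lowest sample at each age. The means were 56.7 ± 2.47 and 58.5 ± 3.61 CPM (SD, n = 3 at each age), and the log2 fold change was 0.04 (SE 0.063, 95% interval -0.095 to 0.18, adjusted p = 0.763 edgeR, Benjamini-Hochberg adjustment over all tested genes). In this fit the interval reached a fold of 1.14 upward and 0.936 downward, and larger changes than these lay outside it. The interval depended on the fit. With the GC and length offsets described below it ran from a fold of 1.06 to 1.22. Of the exon bases of Bdnf, 14.4% lie opposite the annotated gene Gm45346, which the count files did not list, and the strand setting of the counting was not given in the sources used here.

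Ntf3, the ligand of TrkC, lies at chr6:126101412-126166910 on the minus strand and had few reads. Reads numbered 54, 31 and 58 at 6 months and 44, 38 and 56 at 16 months. In CPM these were 1.15, 1.03 and 1.38 at 6 months and 1.33, 1.21 and 1.64 at 16 months. The samples of both ages were mixed, with replicate 2 the lowest and replicate 3 the highest at each age. The log2 fold change was 0.22 (SE 0.18, 95% interval -0.18 to 0.62, adjusted p = 0.578, edgeR), an interval that holds values on both sides of 0.

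The Trk receptors are known from neurons and glia throughout the cortex. Ntrk2, at chr13:58806569-59133970 on the plus strand, was at 846, 827 and 831 CPM at 6 months and at 901, 913 and 902 CPM at 16 months. All 3 older samples lay above all 3 younger ones, and the samples of an age differed little among themselves. The means were 835 ± 10.1 and 906 ± 6.44 CPM, a fold of 1.08 and a log2 fold change of 0.12 (SE 0.045, 95% interval 0.016 to 0.22, adjusted p = 0.220, edgeR). The difference was larger than the spread between the samples of Ntrk2 itself, and it did not pass the test. Of the 6 astrocyte markers, 4 were also higher without overlap of the ages, against 12.2% of all tested genes. Of these 6 markers, 0 were called higher and Gfap was called lower (log2 fold change -0.47). Their median log2 fold change was 0.18, and their summed level was 5435 to 5777 CPM at 6 months and 5818 to 6564 CPM at 16 months. The part of astrocytes in the value of Ntrk2 was not tested.

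Ntrk3, at chr7:78175959-78738012 on the minus strand, was at 59.5, 54.2 and 54.2 CPM at 6 months and at 66.6, 62.2 and 68.2 CPM at 16 months. The ages were again separated, with replicate 1 the highest of the younger and replicate 2 the lowest of the older samples. The means were 56.0 ± 3.02 and 65.7 ± 3.12 CPM, a log2 fold change of 0.23 (SE 0.061, 95% interval 0.094 to 0.37, adjusted p = 0.0968, edgeR). Without replicate 1 of 16 months the value was 0.22 with an adjusted p of 0.0392, and without replicate 2 of 16 months it was 0.27 with an adjusted p of 0.0137 (edgeR). In these fits 2.94% and 6.32% of all tested genes were called higher. Without replicate 3 of 16 months or any 1 sample of 6 months, Ntrk3 was not called, with log2 fold changes of 0.20 to 0.28 and adjusted p values of 0.177 to 0.386 (edgeR).

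Ngfr and Sort1 encode the pair that binds the precursors. Ngfr lies at chr11:95568818-95587735 on the minus strand. Its product p75 is known in the adult forebrain mainly from the cholinergic axons that reach the cortex and from perivascular and glial cells. The RNA of Ngfr was scarce here, and the protein was not measured. Reads numbered 95, 52 and 66 at 6 months and 83, 67 and 60 at 16 months. In CPM these were 2.03, 1.73 and 1.57 at 6 months and 2.50, 2.14 and 1.76 at 16 months. The ages overlapped, and replicate 1 was the highest and replicate 3 the lowest at each age. The log2 fold change was 0.25 (SE 0.17, 95% interval -0.12 to 0.62, adjusted p = 0.481, edgeR). Markers of basal forebrain cholinergic neurons summed to 7.47 to 8.34 CPM at 6 months and 8.18 to 10.2 CPM at 16 months, with 0 of 3 tested genes called. The 4 markers of pericytes and smooth muscle had a median log2 fold change of -0.097 and a summed level of 103 to 108 CPM and 91.7 to 101 CPM, with 0 called. The 5 markers of meningeal fibroblasts had a median of -0.25 and 48.8 to 52.3 CPM and 40.7 to 43.7 CPM, with 0 called. Those of oligodendrocyte precursors had a median of 0.24 and 150 to 155 CPM and 176 to 199 CPM, with Gpr17 called higher. The part of these cells in the value of Ngfr was not tested.

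Sort1, at chr3:108284082-108361511 on the plus strand, was among the most abundant, at 635.6, 600.5 and 618.8 CPM at 6 months and 681.2, 647.1 and 635.9 CPM at 16 months. The ages were separated only by the narrow gap between replicate 1 of 6 months and replicate 3 of 16 months. The means were 618 ± 17.6 and 655 ± 23.6 CPM, a log2 fold change of 0.08 (SE 0.051, 95% interval -0.031 to 0.20, adjusted p = 0.447, edgeR). Its exons overlap those of Gm12523 on the opposite strand over 4.47% of their bases.

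Vgf, at chr5:137026392-137033351 on the plus strand, had the largest log2 fold change of the 8 genes and the widest scatter at 16 months. Its level was 194.7, 188.6 and 183.6 CPM at 6 months and 278.7, 190.2 and 237.5 CPM at 16 months. Replicate 1 of 16 months was far above every younger sample, replicate 3 was also above them, and replicate 2 fell among them, so the ages overlapped. The means were 189 ± 5.54 and 235 ± 44.3 CPM, a log2 fold change of 0.32 (SE 0.11, 95% interval 0.068 to 0.57, adjusted p = 0.188, edgeR). Without replicate 1 of 16 months the log2 fold change was 0.18 (adjusted p = 0.146), and without replicate 2 it was 0.45 (adjusted p = 0.00232, edgeR). Without replicate 3 of 16 months or any 1 sample of 6 months, Vgf was not called, at 0.30 to 0.34 with adjusted p values of 0.363 to 0.492 (edgeR).

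Gfra2, at chr14:70890120-70979838 on the plus strand, was at 69.5, 68.6 and 65.8 CPM at 6 months and at 79.3, 75.4 and 77.4 CPM at 16 months. The ages were separated by a gap wider than the range within each age. The means were 68.0 ± 1.91 and 77.4 ± 1.93 CPM, a log2 fold change of 0.19 (SE 0.051, 95% interval 0.072 to 0.30, adjusted p = 0.105, edgeR). Without replicate 2 of 16 months the value was 0.20 with an adjusted p of 0.0248 (edgeR). With any other single sample left out, Gfra2 was not called, at 0.16 to 0.20 with adjusted p values of 0.0602 to 0.422 (edgeR).

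In all, the ages did not overlap for 4 of the 8 genes, each higher at 16 months, against 12.2% of all tested genes that were separated in that direction. For these 4 the exact permutation test (two-sided, on log2 CPM) gave p = 0.1, the smallest value that 3 samples against 3 allow. For the other 4 it gave p values between 0.2 and 0.5 (exact permutation test). The 6 genes other than Bdnf and Sort1 overlapped no other annotated exon and had no near-identical copy among the annotated transcripts.

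The older samples differed from each other in a way that went with the GC content of genes. The correlation across genes between a gene's deviation from the mean of its age (log2 CPM) and its GC content was 0.600 in replicate 1 of 16 months, -0.592 in replicate 2 and -0.058 in replicate 3, and between -0.130 and 0.163 in the samples of 6 months, where genes are not independent replicates. In the 605 tested genes with 60 to 65% GC the median deviation was 0.21 in replicate 1 and -0.20 in replicate 2 of 16 months. Vgf deviated in the same way, by 0.26 in replicate 1, -0.29 in replicate 2 and 0.030 in replicate 3. Bdnf, at the other end of the GC range, deviated by -0.10, 0.075 and 0.025, and the genes of 40 to 45% GC had medians of -0.14 and 0.13 in replicates 1 and 2. The deviations of Ntrk2, near the middle of the GC range, stayed between -0.0067 and 0.012.

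**Figure D2:**
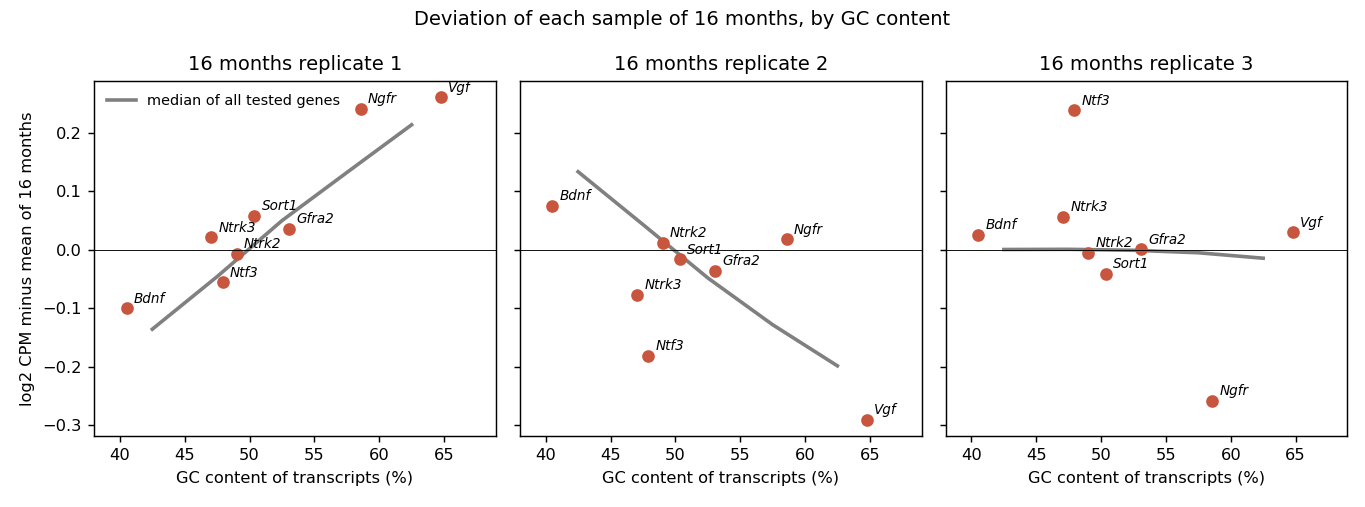
Deviation of each of the 8 genes from the mean of its age (log2 CPM, vertical axis) against the GC content of its transcripts (percent, horizontal axis) in the 3 samples of 16 months, with lines for the medians of all tested genes in GC bins. Replicate 1 runs upward and replicate 2 downward with GC content, and Vgf, at 64.8% GC, lies at 0.26 and -0.29 in these samples.

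When the fit carried an offset for the GC content and the length of each gene in each sample, 5 of the 8 genes were called, all higher at 16 months, against 11.9% of all tested genes called higher in that fit. The offsets raised the calls over all genes from 286, of which 46.9% were higher, to 2977, of which 68.5% were higher, and moved the median log2 fold change of all genes to 0.024. Vgf rose by 0.29 on the log2 scale in that fit (95% interval 0.21 to 0.37, adjusted p = 0.000137, edgeR), and its SD of log2 values at 16 months was 0.083 in place of 0.28. Its levels with the offsets were 193, 192 and 185 CPM at 6 months and 240, 217 and 238 CPM at 16 months. The ages of Vgf no longer overlapped, as was so in that direction for 21.6% of all tested genes.

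Bdnf was the gene whose value depended most on the offsets. These were taken from deviations from a gene's mean over the samples of both ages. They therefore also took out the median change with age of genes of like GC content and length. Without offsets, that median was -0.053 for the 3054 tested genes of 40 to 45% GC. What lay behind that median was not tested. With the offsets the log2 fold change of Bdnf was 0.18 (95% interval 0.084 to 0.29, adjusted p = 0.0147, edgeR) in place of 0.04. Its levels were then 53.0, 54.7 and 54.4 CPM at 6 months and 66.1, 56.5 and 62.0 CPM at 16 months. Unlike that of Vgf, the SD of its log2 values at 16 months grew with the offsets, from 0.090 to 0.11. Replicate 1 of Bdnf, the lowest older sample as deposited, became the highest. The SD at 16 months also grew for Ntf3 (0.22 to 0.23), Ntrk2 (0.010 to 0.017) and Ntrk3 (0.069 to 0.091). It fell for Ngfr, Sort1 and Gfra2.

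The receptors changed little in size between the fits. Ntrk3 was at 0.23 (adjusted p = 0.0034), Gfra2 at 0.18 (adjusted p = 0.00243) and Ntrk2 at 0.11 (adjusted p = 0.0126, each by edgeR with the offsets). The remaining genes were not called, with log2 fold changes of 0.28 for Ntf3 (adjusted p = 0.328), 0.24 for Ngfr (adjusted p = 0.315) and 0.07 for Sort1 (adjusted p = 0.125, edgeR). Without replicates 1 and 2 of 16 months, which leaves 1 older sample that is assumed to vary as the younger ones did, Ntrk3, Vgf and Gfra2 were called, at 0.28, 0.33 and 0.18, against 5.35% of all tested genes called higher.

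**Figure D3:**
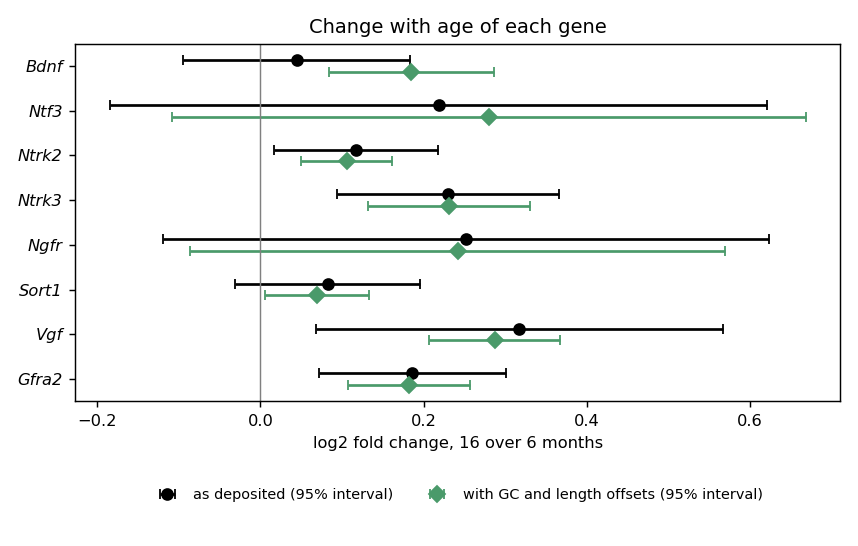
Log2 fold change (16 over 6 months, horizontal axis) with its 95% interval for each of the 8 genes, in the fit of the counts as deposited (circles) and in the fit with GC and length offsets (diamonds). All points lie right of 0, the intervals of Ntf3 and Ngfr are the widest, and the value of Bdnf moves from 0.04 to 0.18.

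Per kilobase of exon, the genes ranged over more than 2 orders of magnitude. The median over the 6 samples was highest for Sort1 (84.0 CPM per kb of exon), followed by Vgf (64.7), Ntrk2 (45.3), Gfra2 (20.5), Bdnf (9.35), Ntrk3 (2.02), Ntf3 (0.741) and Ngfr (0.549). Neighbours in this order were separated over all 6 samples except Sort1 and Vgf, and Ntf3 and Ngfr. The RNA of Ntrk2, with its full-length and truncated forms together, was thus measured at a higher level per length than that of Bdnf. The RNA of Ntf3 and Ngfr was at the lowest. With the length of the longest transcript in place of all exon bases, Ntrk2 came first (99.9 CPM per kb), followed by Sort1 (93.0) and Vgf (67.9), and the other places were as before.

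The genes whose levels ran most like those of Bdnf over the 6 samples were Peli1 (Pearson r = 0.996), Larp7 (0.995) and Naf1 (0.994), among 17119 genes compared. Those most like Ntrk2 were Lrrtm3 (0.996), Fam84a (0.996) and Lmnb1 (0.995). With so few samples, r over 0.95 was reached by 77 genes for Bdnf and by 262 for Ntrk2. These values are a description over samples that share their library preparation and some of which deviated with GC content.

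Ntf5, which encodes NT-4, the other ligand of TrkB, had 8, 5 and 2 reads at 6 months and 7, 10 and 8 reads at 16 months, too few to be tested.

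Among the sortilin family receptors, which sort proneurotrophins and Trk receptors inside the cell, 0 of 4 were called and the median log2 fold change was 0.15. Sorcs2, a partner of p75, was at 48.3, 43.8 and 48.6 CPM at 6 months and 64.4, 53.7 and 55.1 CPM at 16 months, without overlap of the ages (log2 fold change 0.30, adjusted p = 0.0929, edgeR). Sorcs3 was at 0.17 (adjusted p = 0.139), Sorl1 at 0.12 (adjusted p = 0.333) and Sorcs1 at -0.01 (adjusted p = 0.953, edgeR).

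Ret, the kinase that signals for the GDNF family receptors, was the only gene called among the 67 tested genes of the wider pathway, against 1.67% of all tested genes. Its level was 3.78, 3.43 and 3.62 CPM at 6 months and 6.15, 5.07 and 5.09 CPM at 16 months. All older samples lay above all younger ones, and replicate 1 of 16 months was the highest. Ret rose by 0.59 on the log2 scale (SE 0.11, 95% interval 0.35 to 0.82, adjusted p = 0.0266, edgeR). With any 1 sample of 6 months or with replicate 3 of 16 months left out, the call was lost, at log2 fold changes of 0.56 to 0.63 and adjusted p values of 0.101 to 0.155 (edgeR). Ret is expressed by several subcortical neurons as well, and thalamus markers such as Prkcd (log2 fold change 0.91) were higher in the same samples. The part of tissue composition in the value of Ret was not tested. Gfra1, the GDNF receptor, was at 0.19 (adjusted p = 0.127, edgeR), the same size as Gfra2.

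By role, the wider pathway showed small values that were more often positive than negative. Of the 67 tested genes, 50 had a positive and 17 a negative log2 fold change, with a median of 0.098, and the ages did not overlap for 23 that were higher, a state shared by 12.2% of all tested genes, and for 3 that were lower, against 11.5% of all tested genes. Of the 14 genes for processing and release of proneurotrophins, such as proprotein convertases and granule proteins, 0 were called, with 12 positive values and a median of 0.12. The 6 partners of p75 had a median of 0.17, the 8 tested GDNF family genes 0.21 and the 14 Trk adaptors and effectors 0.06.

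Genes upstream and downstream of Bdnf were listed separately, and a difference between the lists was not tested. The 7 regulators of Bdnf transcription, among them Creb1 and Rest, had 3 positive and 4 negative values and a median of -0.017, with 0 called. The 14 activity- and BDNF-induced genes, among them Fos, Arc and Egr1, had 10 positive values and a median of 0.19, with 0 called. Egr3, the highest of them and chosen after its values were seen, was at 72.4 ± 1.11 CPM at 6 months and 96.0 ± 18.0 CPM at 16 months (SD, n = 3, log2 fold change 0.41, adjusted p = 0.102, edgeR). As for Vgf, replicate 1 was the highest and replicate 2 the lowest of the older samples. The GC content of Egr3 was 53.4%. Tested genes of 50 to 55% GC had median deviations of 0.049 and -0.048 in replicates 1 and 2 of 16 months. The source of the spread of Egr3 was not tested. Creb1 encodes the factor that binds the cyclic AMP response element TGACGTCA and variants of it such as CACGTCA. In the 250 bases before the RefSeq start sites (GRCm38.p6), searched on both strands, TGACGTCA was found in 1.55% of 32851 windows and in 0 of the 7 of Bdnf, and CACGTCA was found in 1.65% of all windows and in 1 of the 7. That window, chr2:109692186-109692435 on the plus strand, is shown with the element in capitals, 37 bases before the start site.
Bdnf upstream window: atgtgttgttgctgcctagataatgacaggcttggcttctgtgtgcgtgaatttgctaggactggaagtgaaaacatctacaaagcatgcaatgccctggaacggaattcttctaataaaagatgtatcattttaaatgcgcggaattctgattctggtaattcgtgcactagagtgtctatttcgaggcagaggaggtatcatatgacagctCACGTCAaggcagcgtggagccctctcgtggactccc
RefSeq windows were matched for 4 of the 8 genes, Bdnf, Ntf3, Ntrk2 and Ngfr. The matches describe sequence, and use of this start site was not measured by the gene counts.

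**Figure D4:**
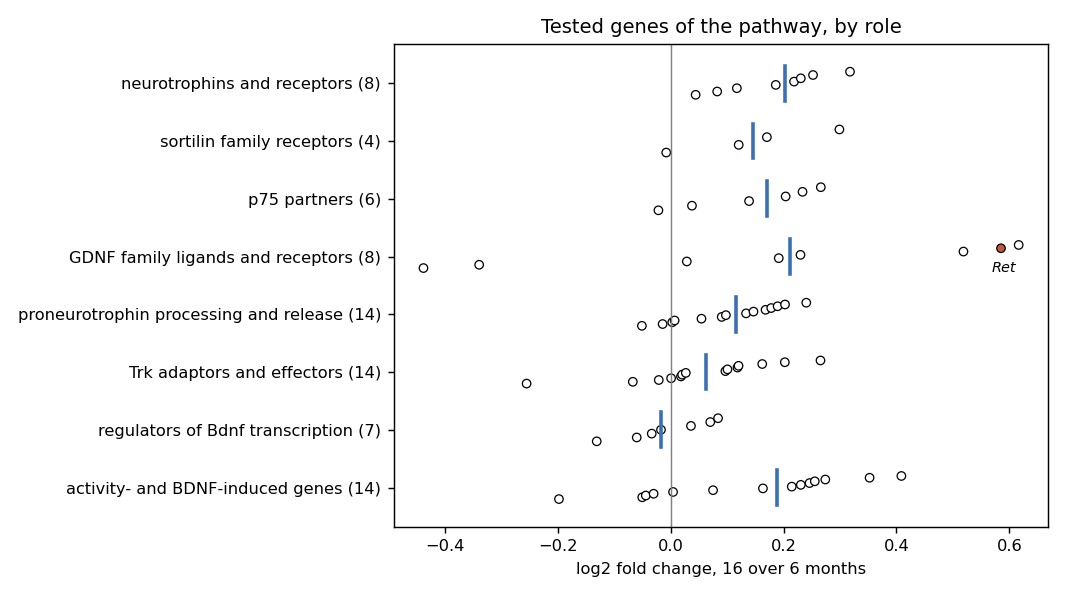
Log2 fold change (16 over 6 months, horizontal axis) of every tested gene of the pathway, grouped by role, with the number of tested genes in brackets, a bar for the median of each group and a filled point for the gene called. Ret, at 0.59, is the filled point, and the median of the regulators of Bdnf transcription is -0.017.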

How the data were processed

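Whole cortical hemispheres of C57BL/6 mice of 6 and 16 months (3 samples each) were sequenced from polyA RNA as paired reads. The authors deposited raw counts of reads per Ensembl gene, without normalization. According to the study's methods, reads were trimmed with fastq-mcf, aligned to mm10 with STAR and counted with HTSeq, while the submitters' processing notes name CASAVA 1.8.2, STAR 2.3.0e and featureCounts 1.5.0-p1. The closing lines of the files have the form of HTSeq. The Ensembl release and the strand setting are not given in the sources used here. Sample titles give the younger age as 6 months, which was used, although the housing protocol names 3 months.

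The closing lines on unassigned reads were left out of library sizes. Reads on genes made up 70.8% to 76.5% of the reads on a gene, on several genes or on no gene. Other unassigned reads were not part of that total. Of the 38355 genes, 36602 were matched by identifier to GENCODE M21 (GRCm38, the build named mm10 by UCSC). The test was the quasi-likelihood test of edgeR 4.0.16 (R 4.3.3) without covariates, after filterByExpr (17120 genes kept) and TMM normalization, with Benjamini-Hochberg adjustment over all tested genes at 0.05. CPM values are TMM-normalized, and log2 CPM use a prior count of 2. Offsets for GC content and length were each sample's median deviations from the gene means of both ages together, over 20 bins of genes. Alternatives included DESeq2 1.42.0, other normalizations and filters, the replicate number as a block, and leaving out samples. Leaving out both older samples that followed GC content, and the length of the longest transcript, were chosen after seeing the data. Near copies were searched with blastn 2.17.0 (97% identity over 100 bases), and figures were drawn with matplotlib 3.10.9. The fitting code was tested on simulated data. Named genes were the 8 genes, their closest relatives, every pathway gene called, the 3 genes most like Bdnf and Ntrk2, and marker genes that were called. Other pathway genes named as examples of a group were taken from its list by their known role. Some genes of the pathway and marker lists are not reported here and were left out of the counts and medians of those lists. The genes and lists were chosen with earlier results of these data known.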

Additional observations from a re-analysis of the deposited data

How the results depend on the processing

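The count of genes called over the whole table was 286 and became 648 without a filter on low counts, 468 with DESeq2, 783 with the replicate block, 2977 with GC and length offsets, 3845 with block and offsets together, and 1786 without both older samples that followed GC content, while leaving out 1 sample gave 48 to 2211. Of the 8 genes, 0 were called in the fit as reported, 1 without the filter (Vgf, adjusted p = 0.0363, against 2.35% of all tested genes), 2 with the replicate block (Ntrk3, adjusted p = 0.0360, and Vgf, adjusted p = 0.0477, against 4.57% of all tested genes), 5 with the offsets, 5 with block and offsets (against 22.5% of all tested genes), 3 without both of those samples, and 0 to 3 with 1 sample left out, all by edgeR. For the 67 other pathway genes the count was 1 and became 7 without the filter (of 70 then tested), 6 with DESeq2, 8 with the block, 26 with offsets, 31 with both and 15 without both of those samples, where 2.35%, 2.61%, 4.57%, 17.4%, 22.5% and 9.85% of all tested genes were called in turn, and 0 to 18 with 1 sample left out. Of all tested genes, 0.277% to 12.7% were called with 1 sample left out. The largest counts of these fits, 3 of the 8 genes and 18 of the 67, came without replicate 2 of 16 months. That was the fit with 12.7% of all tested genes called. The labels do not say whether equal replicate numbers pair the samples, and the values do not settle it. Deviations of same-numbered samples correlated at 0.180, 0.0958 and 0.0351, and those of differently numbered samples at -0.133 to 0.0379. Replicate 3 of 16 months correlated best with replicate 2 of 6 months (0.0379).

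The sign turned in 3 of 224 fold changes of named genes under 16 alternatives. Ngfr was at -0.0301 without both older samples that followed GC content. With 1 sample left out, Sorcs1 ranged from -0.0287 to 0.0027, with the turns without replicate 1 (0.0022) and without replicate 3 (0.0027) of 16 months. The 8 genes had a positive value in 127 of 128 such fits, and 183 of the 224 kept direction and side of the threshold. Why the settings differed was not tested. Few reads limited Ntf3 and Ngfr, and 3 samples per age limited all genes.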
